A study of Mus musculus with 6 samples.

Results

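Genes of fatty acid synthesis, fatty acid binding, lipid droplets and triglyceride hydrolysis were examined as a set of 10 gene symbols, taken by name from the deposited count table. The set holds the synthesis enzymes Fasn and Acaca, the desaturases Scd1 and Scd2, the fatty acid binding proteins Fabp5 and Fabp7, the perilipins Plin2, Plin3 and Plin4, and the lipoprotein lipase gene Lpl. All 10 were found among the 24318 symbols of the table, and 10 of 10 passed the filter on low counts that left 14131 genes for testing. The study asked how the loss of ADGRB1, an adhesion-type receptor of the brain, changes gene expression in astrocytes, and measured poly-A RNA in bulk from mouse brain astrocytes in culture. There were 6 libraries, of which 3 came from the wild type (WT) and 3 from the ADGRB1 knockout (KO). Allele, strain and age, and whether replicates were separate cultures or animals, were not given in the labels used. The p-values thus weigh the difference between genotypes only against the spread of these libraries within a genotype, which may be technical. Libraries held 17460086 to 20334440 counts. Levels are CPM, counts divided by library size, scaled between libraries by TMM, a method that sets the bulk of genes equal, and are given with the SD over 3 libraries.

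The label of the knockout was first checked on the targeted gene. Adgrb1 stood at 299, 363 and 317 CPM in the 3 WT libraries and at 158, 140 and 117 CPM in the 3 KO libraries. The groups did not overlap, as with KO below in 5.87% of all genes tested, but the difference did not pass (log2 fold change -1.24 ± 0.16, edgeR adjusted p = 0.0684). RNA of the gene was still counted in KO at a mean of 138 ± 20.3 CPM, against 327 ± 33.1 CPM in WT, and the deleted part was not given in the labels used. The labelled cell type was checked on marker genes. The astrocyte genes Gfap, Aqp4 and Slc1a2 were at 546 CPM or more in all 6 libraries, but the cultures also held RNA of other cells. The summed level of 10 markers of mature oligodendrocytes, the myelin-forming glia, was 3116 to 4649 CPM in WT and 1940 to 2274 CPM in KO, and that of 8 markers of their precursors 2156 to 2677 CPM in WT and 1284 to 1709 CPM in KO. For 12 microglia and macrophage markers it was 1830 to 2653 CPM in WT and 1593 to 1980 CPM in KO. The log2 fold change was below 0 for 10 of 10, 8 of 8 and 11 of 12 of these markers, and none was called over all genes. Summed astrocyte markers (10 genes) were at 25266 to 29422 CPM in WT and 28902 to 33164 CPM in KO, neuronal markers (9 genes) at 146 to 213 and 172 to 201 CPM, endothelial, pericyte and fibroblast markers (10 genes) at 159 to 171 and 195 to 220 CPM, and ependymal and choroid plexus markers (7 genes) at 41.1 to 111 and 64.5 to 67.2 CPM. The log2 fold change was above 0 for 9 of 10 astrocyte markers (median 0.25) and for 7 of 8 neuronal markers tested. It was above 0 for 6 of 9 endothelial, pericyte and fibroblast markers tested and for 2 of 5 ependymal and choroid plexus markers tested. In such bulk samples a difference in the number of cells of a type and one in RNA per cell cannot be told apart.

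Cells build fatty acids from acetyl-CoA. Acetyl-CoA carboxylase, encoded by Acaca, makes malonyl-CoA, and fatty acid synthase, encoded by Fasn, joins these units into palmitate. Stearoyl-CoA desaturases then place a double bond in the chain. Fatty acid binding proteins carry the chains through the cytosol, and perilipins coat the droplets in which they are stored as triglycerides. Lipoprotein lipase works outside the cell, where it frees fatty acids from triglycerides of lipoproteins. In the brain, astrocytes are a source of lipids for neurons and take up and store fatty acids, Fabp7 is known as a marker of radial glia and astrocytes, and Scd2 as the main brain desaturase of the mouse.

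The positions below are from GENCODE release M21 on GRCm38. Fasn lies on chromosome 11 (120805846 to 120824547, minus strand), as does Acaca (84129672 to 84401651, plus strand). Scd2 (44293674 to 44306864, plus strand) and Scd1 (44394455 to 44407879, minus strand) are both on chromosome 19, with Scd4 between them. Fabp5 lies on chromosome 3 (10012548 to 10016607, plus strand) and Fabp7 on chromosome 10 (57784881 to 57788450, plus strand). Plin2 is on chromosome 4 (86648386 to 86670060, minus strand), Plin3 (56277476 to 56292873, minus strand) and Plin4 (56100591 to 56109803, minus strand) are on chromosome 17, and Lpl is on chromosome 8 (68880491 to 68907448, plus strand). Strand use and the treatment of reads shared by similar genes were not given in the labels used, so close copies and overlaps were looked for in the annotated transcripts. Of all 50-base words in the transcripts of Acaca, 30.4% also occurred in another gene's transcripts, nearly all of them in the pseudogene Gm5182, so its count is uncertain. The share was 5.48% for Fabp5, 4.56% for Scd1, 3.97% for Scd2, 2.57% for Plin2, 1.40% for Lpl and 1.20% for Plin3, and 0% for Fasn, Fabp7 and Plin4. Exons of Plin4 overlap Hdgfl2 on the opposite strand and those of Scd2 overlap Mir5114 on the same strand, so these counts are uncertain too.

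RefSeq promoter windows, which run from 250 bases before to 50 bases after a gene's start (GRCm38.p6), were found for 6 of the 10 genes, namely Fasn, Acaca, Fabp7, Plin2, Plin3 and Plin4. The RefSeq starts of Fasn, Fabp7, Plin2 and Plin4 lie within 42 bases of the GENCODE gene start. Those of Acaca and Plin3 lie 65766 and 2362 bases inside the GENCODE gene, so these 2 windows describe internal starts. Both strands were searched for CCAAT, the core of the box bound by NF-Y, a common partner of the SREBP factors that drive lipid synthesis. It occurred in 5 of 6 windows, all but that of Acaca, and in 37.4% of all 32851 promoter windows. The E-box CACGTG occurred in 1 of 6, Plin2, and in 7.15% of all windows. The GC box GGGCGG occurred in 2 of 6, Plin2 and Plin3, and in 35.7% of all, and the sterol-type element TCACNCCAC in 0 of 6 and in 1.24% of all. These are matches of letters, not sites known to be bound. The windows of Fasn, a gene whose groups did not overlap, and of Fabp7 and Plin4, the genes that varied most between replicates, are printed 5′ to 3′ on the strand of the gene, with CCAAT or its reverse complement in capitals.
Fasn, chr11:120824498-120824797, minus strand: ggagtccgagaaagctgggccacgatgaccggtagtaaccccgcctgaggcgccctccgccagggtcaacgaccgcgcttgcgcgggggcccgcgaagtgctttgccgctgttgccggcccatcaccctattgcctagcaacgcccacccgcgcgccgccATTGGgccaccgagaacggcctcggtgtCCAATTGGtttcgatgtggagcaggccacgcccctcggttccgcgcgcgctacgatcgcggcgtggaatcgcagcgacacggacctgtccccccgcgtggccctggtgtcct
Fabp7, chr10:57784673-57784972, plus strand: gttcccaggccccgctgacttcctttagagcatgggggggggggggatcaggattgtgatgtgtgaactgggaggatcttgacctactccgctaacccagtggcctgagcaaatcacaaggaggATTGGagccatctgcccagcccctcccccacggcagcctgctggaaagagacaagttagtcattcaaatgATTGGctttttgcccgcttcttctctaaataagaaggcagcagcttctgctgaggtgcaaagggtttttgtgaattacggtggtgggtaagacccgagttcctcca
Plin4, chr17:56109733-56110032, minus strand: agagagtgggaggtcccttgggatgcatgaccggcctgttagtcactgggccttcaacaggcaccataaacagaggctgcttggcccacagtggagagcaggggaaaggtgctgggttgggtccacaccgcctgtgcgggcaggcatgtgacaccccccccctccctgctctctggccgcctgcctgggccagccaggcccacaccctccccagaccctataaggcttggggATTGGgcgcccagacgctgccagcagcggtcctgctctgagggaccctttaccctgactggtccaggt
The Fasn window holds 3 such matches, which begin 90, 62 and 59 bases before the start. Those at 62 and 59 are on opposite strands and overlap in the single stretch CCAATTGG. The Fabp7 window holds 2, at 126 and 56 bases before the start, and the Plin4 window 1, at 18 bases before it.

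The 10 genes took between 0.594% and 0.781% of all counts of a library, and Scd2 alone 59.5% to 69.1% of their sum. To compare levels between genes, CPM were divided by the exonic length in kilobases. On this per-length scale Scd2 stood highest, at 764 ± 51.1 CPM per kilobase in WT and 864 ± 37.8 in KO (SD, n = 3 each), and ranked 23 of 14035 genes with a known length. Next came Fabp7 at 124 ± 43.9 and 446 ± 432, Scd1 at 90.8 ± 18.1 and 120 ± 18.4, Fabp5 at 70.1 ± 5.38 and 80.1 ± 10.9, and Fasn at 62.5 ± 5.09 and 71.2 ± 3.91 CPM per kilobase in WT and KO. The perilipins followed, with Plin3 at 24.5 ± 6.60 and 27.5 ± 3.46, Plin4 at 22.0 ± 20.9 and 12.4 ± 9.27, and Plin2 at 10.9 ± 1.18 and 15.1 ± 3.80. Acaca was at 8.37 ± 1.19 and 8.06 ± 0.98, and Lpl was last at 0.11 ± 0.089 and 0.088 ± 0.036, rank 13938. In the order of their means over 6 libraries, the ranges of neighbours overlapped from Scd2 through Fasn and from Plin3 through Plin2. They did not overlap between Fasn and Plin3, between Plin2 and Acaca, or between Acaca and Lpl.

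**Figure D1:**
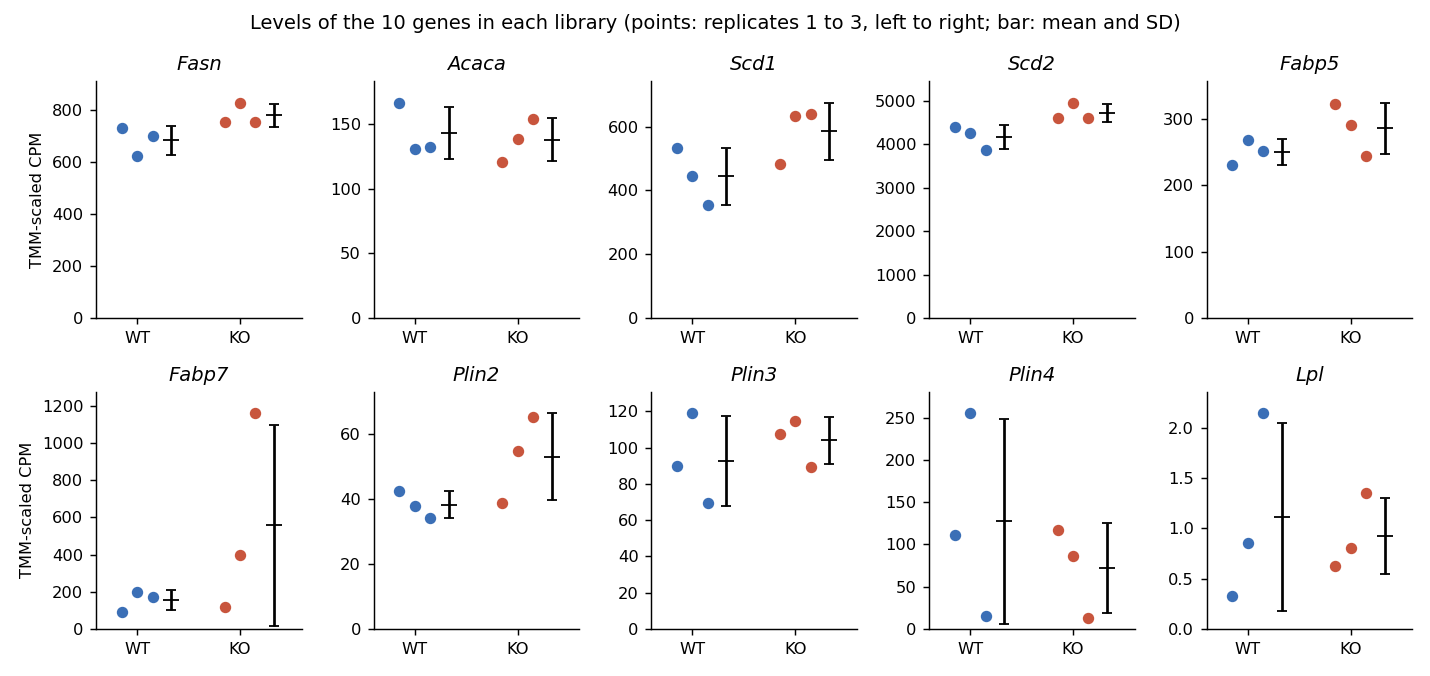
Level of each of the 10 genes in TMM-scaled CPM (vertical axes, each from 0) in WT (blue) and KO (red), with 1 point per library and the mean and SD beside the points. KO points lie above all WT points for Fasn and Scd2 (not with total counts), and the points of Fabp7 in KO and of Plin4 in both genotypes spread widely.

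Fatty acid synthase and the desaturases had higher means in KO and acetyl-CoA carboxylase a lower one, and none of the 4 passed the test. Fasn was at 729, 622 and 701 CPM in WT and at 753, 828 and 756 CPM in KO. The lowest KO library was above the highest WT library, by little. The means were 684 ± 55.7 and 779 ± 42.8 CPM, 13.9% higher in KO, with a log2 fold change of 0.19 ± 0.14 (SE), a 95% confidence interval of -0.12 to 0.50 and an edgeR adjusted p of 0.833 (quasi-likelihood test, Benjamini-Hochberg over the 14131 genes). The difference did not pass the threshold of 0.05.

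Scd2 was at 4397, 4267 and 3861 CPM in WT and at 4608, 4959 and 4595 CPM in KO. These groups did not overlap either. The KO mean was 13.1% higher (log2 fold change 0.18 ± 0.15, interval -0.15 to 0.50, edgeR adjusted p = 0.837). Scd1, whose product carries out the same reaction, was at 533, 445 and 356 CPM in WT and at 482, 635 and 640 CPM in KO. KO replicate 1 lay between the WT libraries, and the other two KO libraries lay above all of them. Its KO mean was 31.7% higher (log2 fold change 0.40 ± 0.19, interval -0.02 to 0.81, unadjusted p = 0.0589, edgeR adjusted p = 0.819). Scd2 exceeded Scd1 on the per-length scale by 7.38, 8.59 and 9.72 times in WT and by 8.56, 7.0 and 6.43 times in KO, ranges that overlap.

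Acaca was at 166, 131 and 132 CPM in WT and at 121, 139 and 154 CPM in KO. The groups overlapped, with WT replicate 1 highest and KO replicate 1 lowest of the 6. The log2 fold change was -0.05 ± 0.16 (interval -0.40 to 0.30, edgeR adjusted p = 0.945). Fasn exceeded Acaca on the per-length scale by 6.84, 7.43 and 8.30 times in WT and by 9.75, 9.32 and 7.66 times in KO.

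Groups that do not overlap, with KO above, were found for 2 of the 10 genes, Fasn and Scd2, and for 5.28% of all genes tested. With KO below there were 0 of the 10 and 5.87% of all genes, or 11.2% of all genes in either direction. With total counts as the only scaling both overlapped, since KO replicate 1, at 708 CPM for Fasn and 4330 CPM for Scd2, then lay within the WT ranges of 625 to 745 and 4103 to 4447 CPM. With the trend of counts with GC content and length removed, Fasn was at 657 to 690 CPM in WT and 758 to 810 CPM in KO and Scd2 at 3804 to 4532 and 4550 to 4886 CPM. The summed oligodendrocyte markers stood lower in KO, where Fasn and Scd2 stood higher. Of the 10 astrocyte markers 9 had a log2 fold change above 0 and 1 below, with a median of 0.25. The part of these markers in the differences of Fasn and Scd2 was not tested.

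The other enzymes of chain building and desaturation were counted as a list of 24 genes, 22 of them tested. With edgeR 0 passed, 17 had a log2 fold change above 0 and 5 below, and the median was 0.16, where all genes tested had a median of 0.01 and 51.9% were above 0. In 4 of the 22 the KO libraries lay above the WT libraries, and in 0 below, where all genes tested had 5.28% and 5.87%. These were Fads1, Fads2, Me1 and Hacd3, the last pair named after their values were seen. With total counts Me1 and Hacd3 overlapped, which left 2 of 22 against 3.26% of all genes. With the GC and length trend removed Me1 overlapped, and Elovl5, named after its values were seen, lay above instead. There were then 4 of 22 above and 1 below, Elovl7, against 5.5% and 6.48% of all genes. Fads2, the delta-6 desaturase of polyunsaturated fatty acids, was at 483, 414 and 452 CPM in WT and at 596, 572 and 558 CPM in KO, a change on the log2 scale of 0.36 ± 0.13 (edgeR adjusted p = 0.779). Fads1, the delta-5 desaturase, was at 632, 639 and 552 CPM in WT and at 820, 821 and 699 CPM in KO (a change of 0.36 ± 0.14, adjusted p = 0.793). In both genes every KO library exceeded every WT library under each of the 4 scalings compared. Elovl7, an elongase, had values of 20.97 ± 3.55 CPM in WT and 11.6 ± 5.71 CPM in KO (edgeR adjusted p = 0.789). Its groups overlapped except with the GC and length trend removed.

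Regulators of lipid synthesis formed a list of 15 genes, 14 tested, of which 0 passed, 8 were above and 6 below 0, with a median of 0.05. Among the 14, KO lay above WT without overlap in 1 and below in 1, against 5.28% and 5.87% of all genes tested. Srebf1, which encodes the transcription factor SREBP1 that drives fatty acid synthesis genes, was at 481, 470 and 450 CPM in WT and at 631, 561 and 547 CPM in KO. The groups did not overlap under any of the 4 scalings compared (log2 fold change 0.31 ± 0.13, edgeR adjusted p = 0.793). Its exons overlap Rai1 on the opposite strand, so its count is uncertain. Ppara, a nuclear receptor that drives fatty acid oxidation, was at 48.4, 61.3 and 36.7 CPM in WT and at 34.5, 31.0 and 31.2 CPM in KO (-0.60 ± 0.20, edgeR adjusted p = 0.656), with KO below WT. Ppara lies on chromosome 15 (85734983 to 85802819), as does the targeted gene Adgrb1 (74516195 to 74589465). The part of this position in its values was not tested. Mlxipl, which encodes the glucose-responsive factor ChREBP, had values of 11.2 ± 3.21 and 7.69 ± 1.84 CPM with overlapping groups, and its exons overlap Gm43500 on the opposite strand. Pparg, the adipocyte regulator, was not tested, at 0.285 CPM or less in each library.

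**Figure D2:**
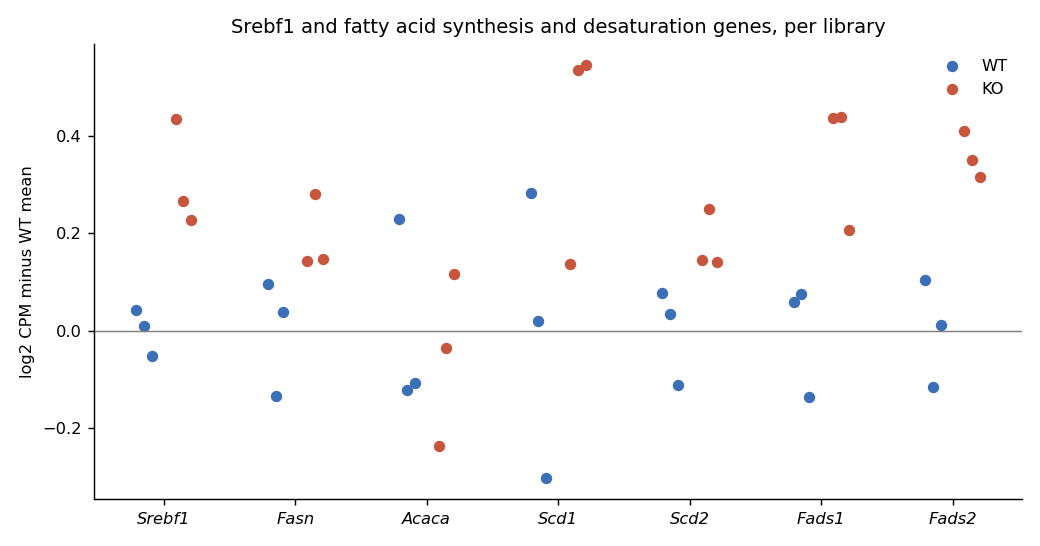
Log2 CPM minus the WT mean (vertical axis) for Srebf1, the 4 synthesis and desaturation genes of the set and Fads1 and Fads2, with 1 point per library, WT in blue and KO in red. For Srebf1, Fasn, Scd2, Fads1 and Fads2 every red point is above every blue point (with total counts not for Fasn and Scd2). Those of Acaca and Scd1 are mixed. Of all genes tested, 5.28% had KO above in this way. Srebf1, Fads1 and Fads2 are drawn because they were among the genes of smallest p in their lists, so the genes shown are partly picked on these values.

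The fatty acid binding proteins differed from each other in how steady they were. Fabp5, the epidermal-type protein, was at 230, 268 and 252 CPM in WT and at 322, 290 and 245 CPM in KO. The groups overlapped through KO replicate 3 (log2 fold change 0.19 ± 0.15, interval -0.14 to 0.52, edgeR adjusted p = 0.834). Fabp7, the brain-type protein, was at 93.6, 199 and 173 CPM in WT and at 116, 396 and 1159 CPM in KO. KO replicate 1 lay within the WT range, KO replicate 2 above it, and KO replicate 3 held 9.98 times the level of KO replicate 1.

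The means of Fabp7 were 155 ± 54.9 and 557 ± 540 CPM, 3.59-fold higher in KO, with a log2 fold change of 1.85 ± 0.87, an interval of -0.36 to 4.05 and an edgeR adjusted p of 0.821. Without KO replicate 3 the log2 fold change was 0.72, so this library decides its size. Within-group variation of Fabp7, as an SD of log2 CPM, was 1.24 and larger than that of 99.7% of the 7961 genes with a mean of at least 20 CPM. It was 1.13 after the trend with GC content and length was removed. The ratio of Fabp5 to Fabp7 per length was 0.862, 0.472 and 0.512 in WT and 0.972, 0.257 and 0.0740 in KO, so that Fabp7 exceeded Fabp5 in 6 of 6 libraries on this scale. In CPM not divided by length, Fabp5 was the higher in all WT libraries and in KO replicate 1. The order thus rests on the exonic lengths used, 3567 bases for Fabp5 and 1250 for Fabp7, which count all annotated exons. Summed markers of radial glia and neural progenitors were at 5729, 4956 and 5700 CPM in WT and 5997, 5709 and 6367 CPM in KO. This sum, which includes the astrocyte marker Slc1a3, was highest in the library where Fabp7 was highest but within a far narrower range. Of its markers Nes, Sox2 and Hes5, only Hes5 was highest in KO replicate 3, at 233 CPM. Nes and Sox2 were highest in WT replicate 3, at 26.5 and 481 CPM, against 18.5 and 467 CPM in KO replicate 3. Cldn5, an endothelial tight junction gene, was at 0.711, 5.19 and 6.08 CPM in WT and at 1.15, 32.7 and 64.4 CPM in KO, in both genotypes lowest in replicate 1 and over all libraries highest in KO replicate 3, as Fabp7 was. The endothelial genes Pecam1 and Flt1 stayed at 8.07 CPM or less, at 2.24 and 5.24 CPM in KO replicate 3. The part of these markers in the Fabp7 values was not tested.

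The genes whose pattern over the 6 libraries was most like that of Fabp7, among 7760 named genes of at least 20 CPM, were Apcdd1 and Vat1l, with a Pearson r of log2 CPM of 0.997 and 0.993 (Spearman rho 1 for both). Apcdd1, an inhibitor of Wnt signalling, was at 23.6, 41.6 and 37.5 CPM in WT and at 31.4, 65.3 and 123 CPM in KO. Vat1l was at 14.5, 24.1 and 19.4 CPM in WT and at 16.7, 30.2 and 50.4 CPM in KO. The points are 6 libraries that share their depth and GC trend, and the 2 genes are the highest of 7760, so the likeness is a description.

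**Figure D3:**
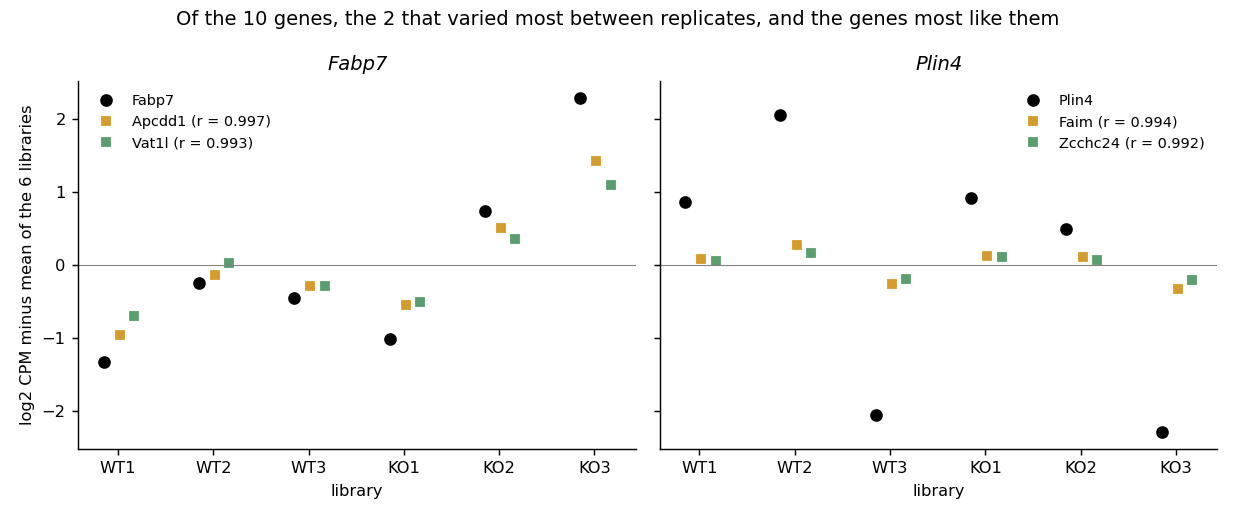
Log2 CPM minus the mean of the 6 libraries (vertical axis) for Fabp7 (left) and Plin4 (right) as black circles, each with the 2 genes of highest Pearson r as squares, by library (horizontal axis). Fabp7, Apcdd1 and Vat1l are highest in KO replicate 3, and Plin4, Faim and Zcchc24 are lowest in KO replicate 3 and WT replicate 3, with a much smaller range in Faim and Zcchc24.

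The other genes for binding, uptake and activation of fatty acids were a list of 15, 13 tested, with 0 passing, 7 above and 6 below 0 and a median of 0.01. In 1 of the 13 the KO libraries lay above the WT libraries and in 1 below, where all genes tested had 5.28% and 5.87%. Acsl1, which activates long-chain fatty acids by joining them to coenzyme A, was at 30.7, 23.1 and 24.6 CPM in WT and at 21.2, 13.7 and 16.3 CPM in KO, without overlap except with the GC and length trend removed (log2 fold change -0.62 ± 0.22, edgeR adjusted p = 0.717). Its exons overlap Gm45244 on the opposite strand and its count is uncertain. Acsl6, named after its values were seen, was at 973, 879 and 890 CPM in WT and at 1170, 1017 and 974 CPM in KO (edgeR adjusted p = 0.833). Its groups too overlapped with the GC and length trend removed, and its exons overlap Gm12224 on the opposite strand. Acsbg1, an acyl-CoA synthetase of the brain, had values of 1228 ± 79.5 and 1533 ± 332 CPM, and Acot7, an acyl-CoA thioesterase, 64.2 ± 9.92 and 50.4 ± 9.37 CPM, and neither passed. Fabp4 and Pmp2, relatives of Fabp5, were not tested, at 0.456 CPM or less in each library.

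Of the perilipins, Plin2 stood higher in KO on average, Plin3 overlapped between genotypes, and Plin4 varied between replicates of both genotypes. Plin2, which coats droplets in most cell types, was at 42.5, 38.0 and 34.2 CPM in WT and at 38.9, 54.9 and 65.4 CPM in KO. KO replicate 1 lay within the WT range and the other two KO libraries above it. The KO mean was 38.8% higher (38.3 ± 4.15 against 53.1 ± 13.4 CPM), with a log2 fold change of 0.47 ± 0.20 and an interval of 0.02 to 0.92. Its unadjusted p of 0.0407 was the smallest of the 10 genes, and the edgeR adjusted p was 0.793. Without KO replicate 3 the log2 fold change was 0.29, and without KO replicate 1 it was 0.65.

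Plin3, a perilipin that moves from the cytosol to young droplets, was at 90.0, 119 and 69.2 CPM in WT and at 108, 115 and 89.6 CPM in KO. The WT range spanned the KO range (log2 fold change 0.17 ± 0.20, interval -0.28 to 0.62, edgeR adjusted p = 0.868). Without WT replicate 3 the log2 fold change was -0.01.

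Plin4, best known from fat and muscle, was at 112, 255 and 14.7 CPM in WT and at 117, 86.4 and 12.5 CPM in KO. WT replicate 3 and KO replicate 3 were low and the other 4 libraries high, and the highest library held 20.4 times the level of the lowest. Plin4 made up 35.0%, 51.1% and 8.35% of the summed perilipin level per length in WT and 33.8%, 24.5% and 4.87% in KO. Its within-group SD of log2 CPM was 1.94, larger than that of 99.8% of genes with at least 20 CPM, and 1.90 after the trend with GC content and length was removed. The genotypes did not differ beyond this spread (log2 fold change -0.82 ± 1.29, interval -4.24 to 2.60, edgeR adjusted p = 0.896), and without WT replicate 2 the sign turned (0.17). Hdgfl2, listed as Hdgfrp2, which overlaps Plin4 on the opposite strand, ranged from 94.1 to 142 CPM over the 6 libraries and was also lowest in KO replicate 3 and WT replicate 3. Adipocyte markers were nearly absent, with Adipoq, Cfd and Retn at 0 counts in 6 of 6 libraries, which allows up to 0.172 CPM in the shallowest library, and a sum over 7 markers of at most 0.456 CPM.

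Faim and Zcchc24 were the genes most like Plin4, with a Pearson r of 0.994 and 0.992 over the 6 libraries (Spearman rho 0.943 for both). Faim, an inhibitor of apoptosis, was at 28.6, 32.5 and 22.5 CPM in WT and at 29.4, 29.0 and 21.4 CPM in KO. Its highest value was thus far closer to its lowest than in Plin4. For Plin2 the most alike genes were Khnyn (r = 0.991) and Mcf2l (0.971), for Plin3 Vps33a and Pde6d (0.994 and 0.993), and for Fasn E4f1 and Mdga1 (0.986 and 0.982). For Scd1 they were Itpr1 and Strap (0.986 and 0.983), for Scd2 Sf3a1 and Rtca (0.991 and 0.976), for Fabp5 Prdx5 and Gnas (0.995 for both), and for Lpl Gem and Fam188a (0.977 and 0.976).

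The remaining droplet and triglyceride genes were a list of 21, 19 tested, with 0 passing, 12 above and 7 below 0 and a median of 0.07. Among the 19, KO lay above WT without overlap in 1 and below in 1, against 5.28% and 5.87% of all genes tested. Abhd5, the co-activator of the droplet lipase, was at 44.1, 47.4 and 46.9 CPM in WT and at 38.9, 34.6 and 37.7 CPM in KO, without overlap (log2 fold change -0.32 ± 0.14, edgeR adjusted p = 0.803). Mgll, which hydrolyses monoglycerides and the endocannabinoid 2-AG, was at 772, 712 and 672 CPM in WT and at 992, 840 and 774 CPM in KO, without overlap (0.27 ± 0.15, edgeR adjusted p = 0.825). Both overlapped with the GC and length trend removed. Exons of both overlap an antisense gene, which makes their counts uncertain. Agpat2, an enzyme of triglyceride assembly, had values of 3.00 ± 1.06 and 4.73 ± 1.19 CPM and overlaps Egfl7 on the opposite strand. The perilipin Plin1 was at 0.150 CPM or less and Cidec at 0 counts in 6 of 6 libraries, and neither was tested.

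Lpl was scarce. It held 6, 15 and 43 counts in the WT libraries and 12, 15 and 27 in the KO libraries, or 0.328, 0.855 and 2.14 CPM and 0.628, 0.801 and 1.35 CPM. WT replicate 3 was highest and WT replicate 1 lowest, so the WT range spanned the KO range. By an exact binomial interval (Clopper-Pearson, 95%, counting error only) the unscaled CPM was 0.122 to 0.722 in WT replicate 1 and 1.65 to 3.06 in WT replicate 3, so these replicates differed beyond counting error. The log2 fold change was -0.26 ± 0.83 (interval -2.11 to 1.58, edgeR adjusted p = 0.949), and 0.64 without WT replicate 3. In WT replicate 3 the summed markers of microglia (2653 CPM) and of oligodendrocyte precursors (2677 CPM) were also the highest of the 6 libraries, while KO replicate 3, next in Lpl, had the lowest microglia sum (1593 CPM). Their part in the Lpl values was not tested.

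Partners of the lipase and lipoprotein receptors were a list of 10, of which 6 were tested and 0 passed, with 4 above and 2 below 0 and a median of 0.43. Gpihbp1, which anchors the lipase on capillary walls, and its activator Apoc2 were at 0 counts in 6 of 6 libraries. Vldlr, a receptor of triglyceride-rich lipoproteins, was at 61.3, 33.7 and 63.5 CPM in WT and at 27.6, 27.6 and 49.2 CPM in KO, with overlap (edgeR adjusted p = 0.819). Angptl4, an inhibitor of the lipase, had values of 28.1 ± 16.2 and 47.2 ± 26.2 CPM and Sdc1 of 2.55 ± 2.06 and 4.22 ± 0.997 CPM, both with overlap.

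Fatty acid oxidation genes, a list of 18 that were all tested, had 16 members above and 2 below 0, a median of 0.18 and 0 passing, where all genes tested had 51.9% above 0 and a median of 0.01. In 3 of 18 the KO libraries lay above WT and in 0 below, against 5.28% and 5.87% of all genes. Hadhb, a subunit of the mitochondrial trifunctional protein, was at 226, 275 and 227 CPM in WT and at 332, 284 and 288 CPM in KO (0.31 ± 0.14, edgeR adjusted p = 0.812). Slc25a20, the carnitine carrier of the mitochondrial membrane, was at 42.5, 57.2 and 49.1 CPM in WT and at 71.2, 59.9 and 57.5 CPM in KO (0.34 ± 0.16, adjusted p = 0.819). Hadha, named after its values were seen, was the other. With total counts Hadha overlapped, which left 2 of 18 above, against 3.26% of all genes, and 1 of 18 then lay below, against 8.15%. With the GC and length trend removed Hadhb and Slc25a20 overlapped, which left 1 of 18 above (5.56%), against 5.5% of all genes. None of the 3 genes stayed apart under all 4 scalings. Etfb, with values of 136 ± 28.4 and 172 ± 40.7 CPM, overlapped between groups. Exons of Hadha, Etfb, Car9 and Me1 overlap another gene, which makes their counts uncertain. Hypoxia targets, counted because droplets form in low oxygen, had 4 of 10 above and 6 below 0, a median of -0.07 and 0 passing. Among them Ndrg1 was at 279, 284 and 171 CPM in WT and at 136, 174 and 129 CPM in KO (-0.74 ± 0.21, edgeR adjusted p = 0.582), and its exons overlap genes on the opposite strand. Ndrg1 lies on chromosome 15 (66929318 to 66969640), as does the targeted gene Adgrb1 (74516195 to 74589465). The part of this position in its values was not tested. Adm had values of 4.03 ± 2.37 and 1.84 ± 1.85 CPM and Car9 of 0.712 ± 0.085 and 0.399 ± 0.118 CPM.

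**Figure D4:**
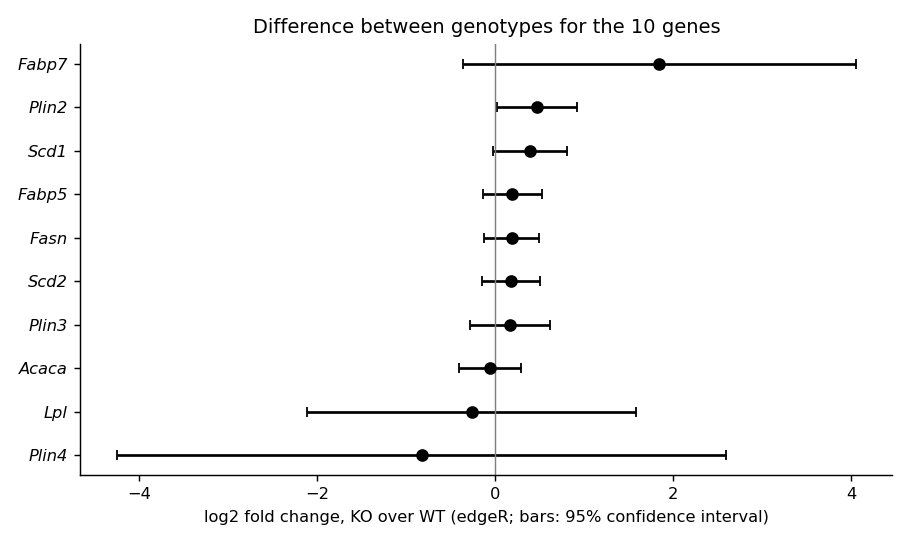
Log2 fold change of KO over WT (horizontal axis, edgeR) for the 10 genes, with 95% confidence intervals as bars. The intervals of 9 genes include 0, that of Plin2 runs from 0.02 to 0.92, and those of Plin4, Fabp7 and Lpl are the widest.

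Across the set, 0 of the 10 genes passed at an adjusted p of 0.05 with edgeR, DESeq2 or limma voom (DESeq2 gave Lpl no adjusted p). Over all genes tested, edgeR called 0% and limma voom 0.0566%, and DESeq2 called 0.652% of the 11664 genes to which it gave an adjusted p. At an unadjusted p under 0.05 with edgeR there was 1 of 10, Plin2, where 6.16% of all genes tested had such a p. Plin2 was higher in KO, as were 2.34% of all genes at this p, and 0 of the 10 were lower, against 3.83% of all genes. Of the 10 genes 7 had a log2 fold change above 0 and 3 below, with a median of 0.18, against 0.01 over all genes tested. The summed level of Fasn, Acaca, Scd1 and Scd2 was 5825, 5463 and 5050 CPM in WT and 5963, 6561 and 6145 CPM in KO, of which Scd2 made up most. The summed level of the perilipins was 244, 412 and 118 CPM in WT and 263, 256 and 167 CPM in KO, and the WT range spanned the KO range.

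The libraries also differed in a trend of counts with GC content that did not follow genotype alone. The libraries were put in 2 sets by the sign of the Spearman correlation between relative level and GC content. It was above 0 in the first set, at 0.0563 in WT replicate 2 and at 0.388 and 0.355 in KO replicates 1 and 2. In the second set it was below 0, at -0.16 and -0.334 in WT replicates 1 and 3 and at -0.394 in KO replicate 3. WT replicate 2 thus had hardly any trend with GC content. Its correlation with exonic length was -0.204, beside -0.337 and -0.243 in KO replicates 1 and 2. In the second set that correlation was 0.229 to 0.262. Within the first set the difference of KO minus WT in log2 CPM was 0.35 for Fasn, 0.31 for Scd1, 0.16 for Scd2, 0.19 for Fabp5, 0.11 for Fabp7 and 0.28 for Plin2. Within the second it was 0.08, 0.56, 0.16, 0.02, 3.19 and 0.78 for the same genes. Plin4 differed by -1.35 and -1.69 in the 2 sets, although its groups overlap over all 6 libraries. Acaca (-0.01 and 0.06), Plin3 (-0.10 and 0.18) and Lpl (-0.24 and 0.56) changed sign between sets. Since 1 genotype is a single library in either set, these differences carry no test, and libraries within a set still differ in the trend.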

How the data were processed

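Poly-A RNA of 6 libraries was read as paired ends after NEBNext Ultra II preparation, per the labels' protocols. The authors deposited estimated counts per gene symbol, not normalized. The submitters' processing notes name TopHat2, featureCounts, GRCm38 and mm9, with no roles. Of the values 0.711% to 0.847% per library were not whole (tolerance 0.01), and all were rounded. Replicates differed beyond sampling noise (chi-square divided by its degrees of freedom 22.3 to 89.1, genes with 10 or more counts per pair), so no library was taken as a repeat deposit of another. This does not show that they came from separate cultures.

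The comparison of KO with WT used edgeR 4.0.16 (R 4.3.3) and its quasi-likelihood F test, with filterByExpr, TMM, robust dispersions and Benjamini-Hochberg adjustment over all 14131 genes tested. Standard errors are the log2 fold change over the root of F. Log2 CPM used a prior count of 2. The test was tried on simulated data. Exonic length and GC content came from GENCODE M21, to which 23954 of 24318 symbols (98.5%) matched by name or synonym, and promoters from RefSeq.

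The 10 genes and all lists were chosen with earlier results of these data known. The named genes are the 10, of each list the 3 of smallest p, and for each of the 10 the 2 genes of highest Pearson r (1 result of this kind is not reported here). Other genes, such as the untested Pparg, Fabp4, Pmp2, Plin1, Cidec, Gpihbp1 and Apoc2, were named after their values were seen. Pathway genes whose exons overlap those of another gene are called uncertain. Alternatives were RLE and total-count scaling, no low-count filter, a filter of 1 CPM in 3 libraries, DESeq2 1.42.0, limma 3.58.1 voom with quality weights, a block for the replicate number, removal of the GC and length trend (natural splines, 4 degrees of freedom), a batch term for which side of the GC trend a library is on, and leaving out each library.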

Additional observations from a re-analysis of the deposited data

How the results depend on the processing

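None of the 10 genes was called under any of the 15 alternatives run (Lpl could not be fitted with the filter of 1 CPM and had no adjusted p with DESeq2). Fasn, Scd1, Scd2, Fabp5, Fabp7 and Plin2 were above 0 in each of them. Over the fits that left out 1 library the log2 fold change ran from 0.11 to 0.24 for Fasn, 0.26 to 0.55 for Scd1, 0.12 to 0.22 for Scd2, 0.09 to 0.29 for Fabp5, 0.72 to 2.32 for Fabp7, 0.29 to 0.65 for Plin2, -0.01 to 0.38 for Plin3, -1.38 to 0.17 for Plin4, -0.14 to 0.07 for Acaca and -0.69 to 0.64 for Lpl. The signs that turned were those of Acaca with the GC and length trend removed (0.060), with its side as a batch term (0.018), without WT replicate 1 (0.070) and without KO replicate 1 (0.026), of Plin4 with limma voom (0.29) and without WT replicate 2 (0.17), and of Plin3 (-0.0053) and Lpl (0.64) without WT replicate 3. The cause was not tested. With the batch term Plin4 was at -1.80. The smallest adjusted p of any of the 10 genes was 0.201, for Scd1 with limma voom.

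Over all genes, 0 were called higher and 0 lower in KO with edgeR, and 871 had an unadjusted p under 0.05. Other settings called 2 higher and 4 lower (all genes kept), 14 and 62 (DESeq2), 2 and 6 (limma voom), 3 and 12 with the GC and length trend removed, and 14 and 74 with its side as a batch term. Leaving out 1 library gave 0 to 4 higher and 0 to 27 lower, the most without KO replicate 3.

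The replicate numbers were not taken as pairs. Same-numbered libraries deviated together with a correlation of 0.0873, 0.150 and 0.284, not all above 0.1, although each library correlated best with its own number. With the replicate block 7 genes were called higher and 37 lower, 0 of them among the 10. Depth limits Lpl alone among the 10, at 6 to 43 counts per library.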
